A study of Sus scrofa with 4 samples.

Results

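The tags described here are short transcript tags found in the muscle of one pig line at both ages and in neither library of the other line. They were chosen by their counts: a tag needed 3 or more copies in both libraries of its own line and 0 copies in both libraries of the other. Of 17902 distinct tags in the 4 libraries, 15 met the rule, 6 in the Dunel line and 9 in the Large White line. They are called private tags, and are named by line (DU or LW) and by a letter in order of their copies. The contrast between lines chose them, so their line difference is given as a description and was not tested.

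Serial analysis of gene expression (SAGE) was run on total RNA from Longissimus dorsi, the long muscle of the back, biopsied at 3 and 9 months of age. The Dunel line is a Landrace X Duroc cross and the other line is purebred Large White; all animals were castrated males kept on the same feed and in the same environment. The libraries came from 1 pig per line, biopsied at both ages, out of 10 reared per line, and the pigs were picked by weight and growth as the fattest Large White and the leanest Landrace X Duroc. Each of the 4 groups therefore holds 1 library, and line, animal and the way the animal was picked cannot be told apart. The libraries held 12980 to 13590 tags each, so a count of 0 allows a share of up to 0.0221% to 0.0231% of a library (3 copies). The Large White library at 9 months had the most tags seen a single time, 49.3% of its copies, against 25.8% to 32.5% in the other 3. It also had the smallest share of ditags that were repeated copies, 6.94% against 15.1% to 19.5%.

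SAGE counts a transcript by the bases that follow its last CATG, the site cut by the anchoring enzyme. A single-base variant within those bases gives the transcript a different tag, and an animal homozygous for that variant shows only its own form. A variant that destroys this last CATG, or makes a new one after it, moves the tag elsewhere in the transcript. Where no CATG is left, the transcript yields no tag. In either case no tag of similar sequence appears in its place. A sequencing error in an abundant tag also yields a tag 1 substitution away. For these reasons each private tag was compared with every tag of the other line that differs from it by 1 substitution, called here its counterpart. Where several existed, the most abundant in the other line was taken. No transcript sequences were used here, so tags were not matched to genes and the tissue label was not checked against muscle markers.

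The next 8 sequences are the 4 pairs that hold a private tag and in which both forms had 10 or more copies. In each of them the forms led in different lines, and they carry the main pattern of the private tags. Each is the 17-base tag as counted, read from CATG, 5′ to 3′, with the base that differs between private tag and counterpart in capitals.

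DU-A, which is also the counterpart of LW-C: aaggctccGccgtcact

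LW-C, which is also the counterpart of DU-A: aaggctccAccgtcact

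LW-A: tcatccggcaGaatgcg

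counterpart of LW-A: tcatccggcaAaatgcg

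LW-B: gtaggggaaggagGagg

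counterpart of LW-B: gtaggggaaggagAagg

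LW-D: ctgtCggtgacattcct

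counterpart of LW-D: ctgtTggtgacattcct

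Positions are counted from 1 at the base after CATG, and a substitution is written with the private tag's base first. DU-A differed from LW-C by G9A, and this was the only pair in which both forms were private. DU-A was counted 26 and 9 times in the Dunel libraries at 3 and 9 months and 0 times in either Large White library. LW-C was counted 19 and 5 times in the Large White libraries and 0 times in either Dunel library. Thus the 35 copies of the pair in Dunel were all of one form and the 24 copies in Large White were all of the other. That split holds for any pair with both forms private. Against the 3 copies that a count of 0 allows over both libraries of the other line, DU-A was at least 11.7-fold higher in Dunel and LW-C at least 8.01-fold higher in Large White. Such limits, here and below, take the counts of the tag's own line as exact, without their counting error. With each repeated ditag counted a single time, DU-A had 20 and 9 copies and LW-C 18 and 5. Summed over both forms, the pair stood at 26 and 9 copies in Dunel and 19 and 5 in Large White, so the summed counts overlapped between the lines.

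LW-A was the most abundant private tag, with 22 copies at 3 months and 22 at 9 months in Large White, at least 14.7-fold above the limit for Dunel. Its counterpart (G11A) was counted 29 and 37 times in Dunel and 1 and 6 times in Large White. The private form was absent from Dunel, as the rule requires, while the Large White libraries held copies of both. There the counterpart took 13.7% of the 51 copies of the pair. LW-B was counted 14 and 11 times in Large White, at least 8.34-fold above the limit, and its counterpart (G14A) 8 and 10 times in Dunel and 0 and 3 times in Large White. LW-D was counted 11 and 5 times in Large White, at least 5.34-fold above the limit, and its counterpart (C5T) 13 and 5 times in Dunel and 0 and 3 times in Large White. LW-B and LW-D showed the same arrangement as LW-A. Dunel held 1 form only, which the rule fixes. Large White held mostly the private form with a few copies of the other.

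The few copies of the Dunel form in Large White lay mostly in the 9 month library. Of the copies of both forms, the counterpart of LW-A took 1 of 23 at 3 months (4.35%, Wilson 95% interval 0.772 to 21.0) and 6 of 28 at 9 months (21.4%, 10.2 to 39.5). The counterpart of LW-B took 0 of 14 (Wilson upper limit 21.5%) and then 3 of 14 (21.4%, 7.57 to 47.6). The counterpart of LW-D took 0 of 11 (Wilson upper limit 25.9%) and then 3 of 8 (37.5%, 13.7 to 69.4). In all 3 pairs the share was higher at 9 months and the intervals, which cover counting error only, overlapped. The 9 month Large White library is also the one with the most single-copy tags; its part in these shares was not tested. For the pair of DU-A and LW-C the Dunel form was at 0 of 19 (Wilson upper limit 16.8%) and 0 of 5 (43.4%). The limit at 9 months lies above the shares of the other 3 pairs.

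**Figure D1:**
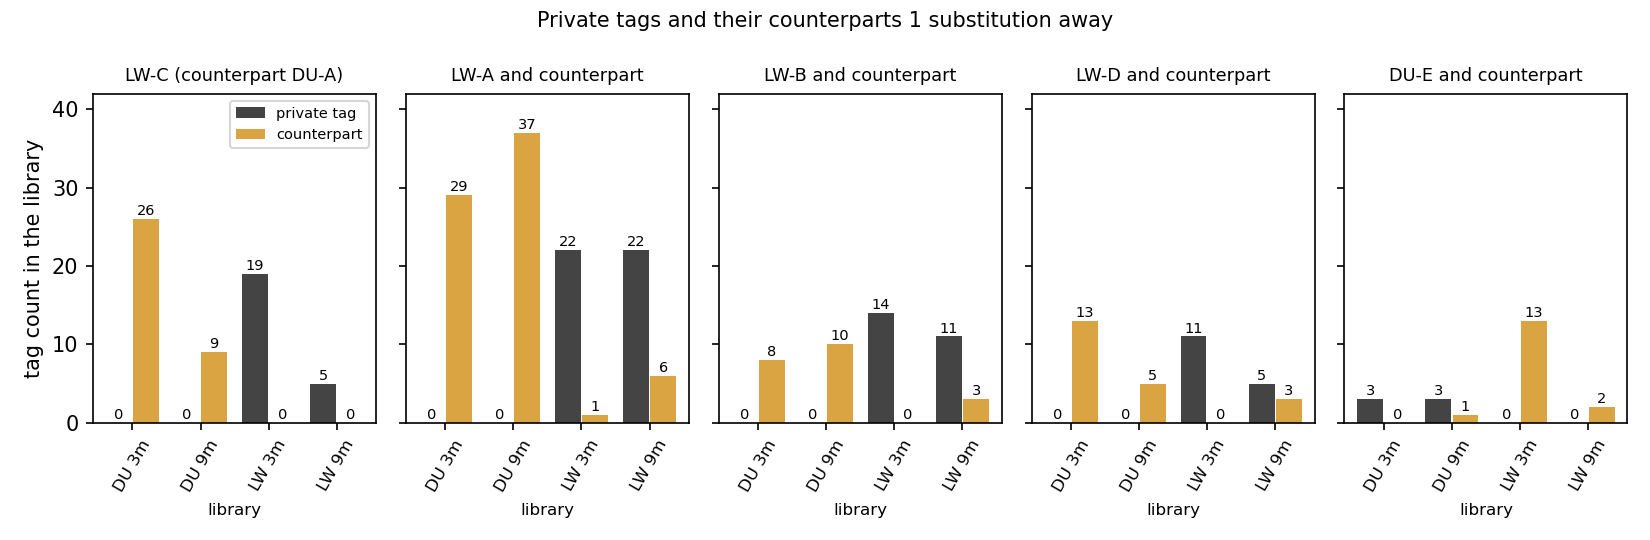
Tag counts (vertical axis, copies per library) of 5 private tags (dark bars) and of their counterparts 1 substitution away (gold bars) in the Dunel (DU) and Large White (LW) libraries at 3 and 9 months. By the rule, the private tag of each of the first 4 panels stands only in the Large White libraries. Its counterpart leads in the Dunel libraries. DU-E has 3 copies in each Dunel library and its counterpart 13 and 2 in Large White.

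These 4 pairs were compared with all pairs of tags 1 substitution apart in which each form had 10 or more copies over the 4 libraries. There were 49 such pairs, of which 4 held a private tag. In these 4 the share of the more frequent form differed between the lines by 84.2 to 100 percentage points, a difference that the rule itself fixes in large part. In the other 45 pairs it differed by a median of 2.07 points, and by more than 50 points in 1 pair, at 75 points. In that pair, without a private tag, the forms also led in different lines. Its more frequent form took 8.33% of 12 copies in Dunel and 83.3% of 18 in Large White. Many of these 45 pairs join a rare form to a very abundant one, and their shares can move little. In the 4 pairs with a private tag the less frequent form had 60.3% to 84.0% of the copies of the other. Among the 45, 13 had a less frequent form at 50% or more of the other, a limit chosen after the data were seen, and these differed by a median of 14.7 points (0 to 75). The minimum of 10 copies also leaves out LW-F and LW-G, which were rare forms beside an abundant counterpart in their own line.

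**Figure D2:**
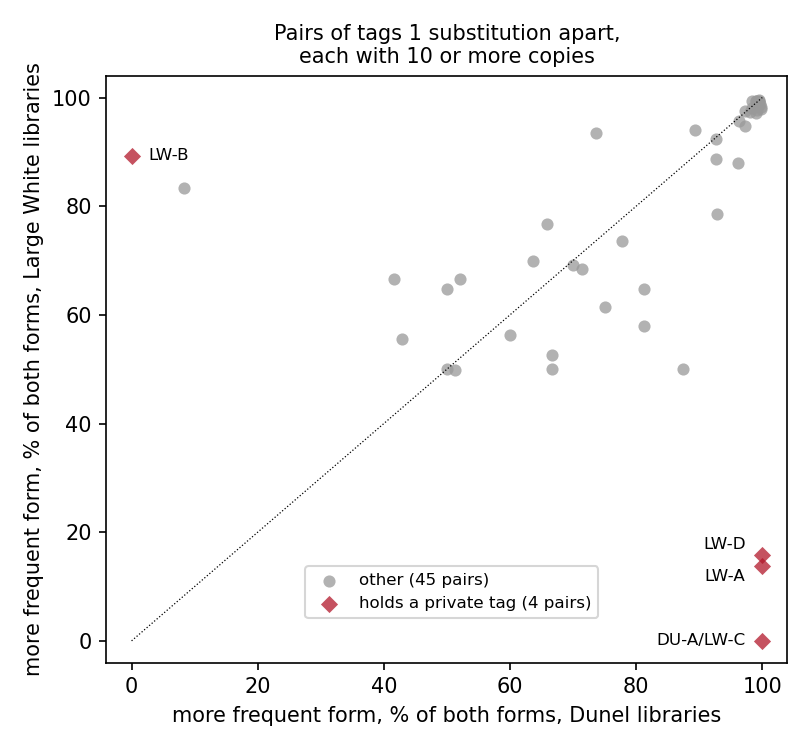
Each point is a pair of tags 1 substitution apart, each form with 10 or more copies; the axes give the more frequent form as a percent of the copies of both forms in the Dunel libraries (horizontal) and in the Large White libraries (vertical), and the dotted line marks equal shares. The 4 pairs that hold a private tag (red diamonds) differ by 84.2 points or more, as the choice of private tags largely fixes; the other 45 (grey) differ by a median of 2.07 points, and the 13 of them with forms of similar frequency by 14.7.

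The other 6 private tags with a counterpart are shown with the substituted base in capitals, because its place in the tag sets them apart from each other. For LW-F and LW-G the far more abundant counterpart follows.

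DU-B: agcCgtcccatccctcg

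DU-C: gtccacttCagccacca

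DU-E: caggGgcttcagttgat

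LW-E: aaacattggagtagtTc

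LW-F: tgatgtcaaggaaataT

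LW-G: aggattgaggaggctTt

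counterpart of LW-F: tgatgtcaaggaaataA

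counterpart of LW-G: aggattgaggaggctCt

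DU-E was counted 3 times in each Dunel library, and its counterpart (G5A) 0 and 1 times in Dunel and 13 and 2 times in Large White. DU-B was counted 4 and 6 times in Dunel, and its counterpart (C4T) once in each Large White library and never in Dunel. In both pairs the forms led in different lines, as in the pairs above, at counts near the threshold. DU-C was counted 6 and 3 times in Dunel, but its counterpart (C9T) was the more frequent form there, with 9 and 6 copies, and had 0 and 2 copies in Large White. Both forms of that pair were thus more frequent in Dunel. Summed over both forms it stood at 15 and 9 copies in Dunel and 0 and 2 in Large White.

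LW-E, LW-F and LW-G differed from their counterparts in the last 2 bases of the tag. In ditags of 33 or 32 bases the tags from both ends share 1 or 2 bases. A base at position 16 or 17 can therefore come from the partner tag. Whether it did for these tags was not tested. LW-F was counted 5 and 3 times in Large White, and its counterpart (T17A) 16 and 101 times in Dunel and 125 and 71 times in Large White. LW-G was counted 3 and 4 times, and its counterpart (T16C), the most abundant counterpart of all, 176 and 166 times in Dunel and 158 and 102 times in Large White. Within Large White itself, the counterpart was 24.5 times as frequent as LW-F and 37.1 times as frequent as LW-G, respectively, so both lines held the abundant form. LW-E was counted 7 and 5 times, and its counterpart (T16C) 1 and 4 times in Dunel and 1 and 2 times in Large White.

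The end of the tag also held many of the tags close to abundant ones. Around the 26 tags with 100 or more copies in Large White, 32.2% of the copies of tags 1 substitution away had the substitution at position 16 or 17, where 11.8% would lie if positions were hit evenly. Around the 28 such tags in Dunel it was 40.5%. Of 13 tags 1 substitution from an abundant Large White tag and with 3 or more copies in both Large White libraries, 2 were absent from Dunel, LW-F and LW-G; in Dunel it was 0 of 6. When tags were shortened to their first 15 bases, LW-E, LW-F and LW-G were no longer private, since the shortened tags had 5, 128 and 348 copies in Dunel. The other 12 private tags stayed private at that length.

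The remaining 4 private tags had no counterpart 1 substitution away in the other line, and 3 of them are shown for contrast with the pairs above.

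DU-D: gaaggtgtgttgtcaca

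LW-H: gctactgagatgtaccc

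LW-I: tcctgtctccactggtt

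DU-D was counted 4 and 4 times in Dunel. LW-H was counted 4 and 3 times in Large White, and LW-I 3 and 3 times; LW-I ranked ninth in its line and was included after its values were seen. None of these 3 exceeded 4 copies in a library, which is close to the 3 copies a count of 0 allows in the other line. DU-D rested on repeated ditags, the joined tag pairs that PCR can copy: with each repeated ditag counted a single time it had 3 copies at 3 months and 1 at 9 months. No repeated ditag held LW-I, and 1 held LW-H.

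**Figure D3:**
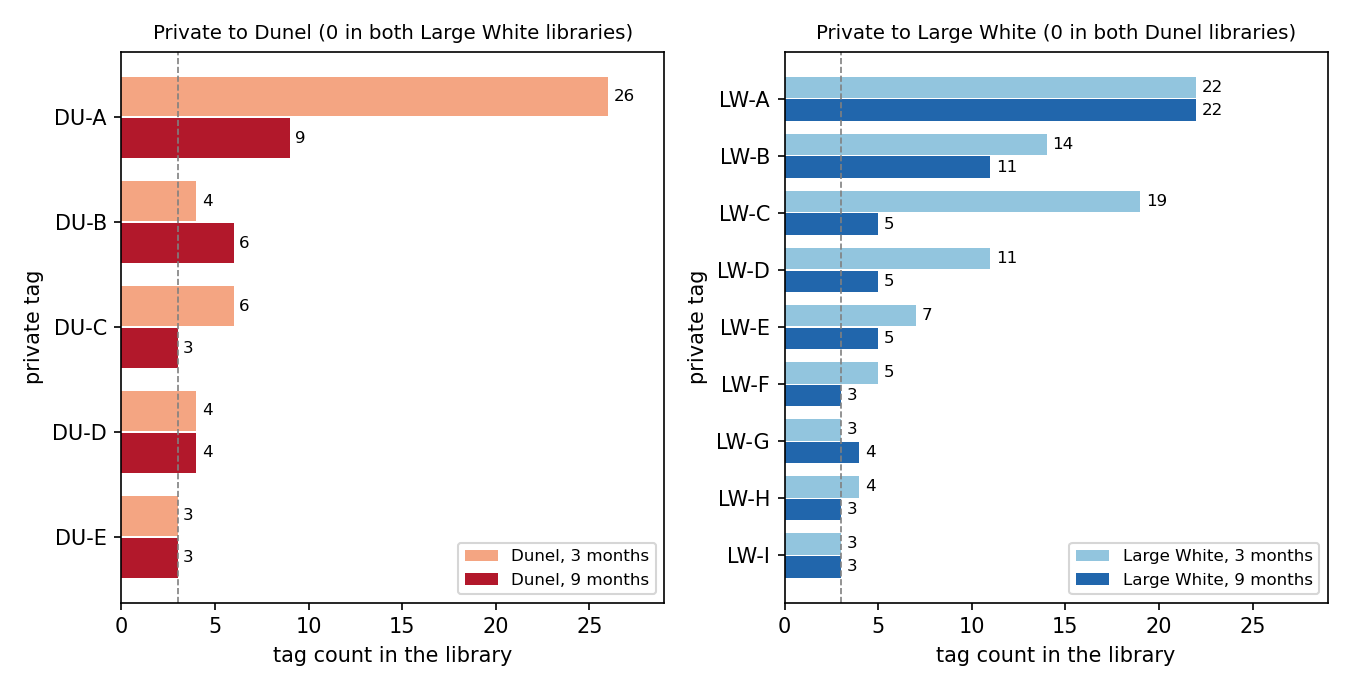
Copies of 14 of the 15 private tags (rows) in the 3 and 9 month libraries of its own line, with tags private to Dunel and to Large White in separate panels and a dashed line at the minimum of 3 copies; by the rule every tag has 0 copies in both libraries of the other line. DU-A (26 and 9 copies) stands apart in Dunel, and LW-A to LW-D exceed the other Large White tags at 3 months.

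A counterpart was common among private tags and among other tags. In Dunel 4 of 6 private tags had one (66.7%, Wilson 95% interval 30.0 to 90.3), against 153 of 249 tags (61.4%) that were not private, had 3 or more copies in both Dunel libraries and lay in the same range of copies. In Large White 7 of 9 had one (77.8%, 45.3 to 93.7), against 146 of 210 (69.5%). Each interval includes the share of the other tags. A stricter count, chosen after the data were seen, asked for a counterpart with 3 or more copies in both libraries of the other line and fewer copies than the tag in its own. It held for 1 of 6 private tags in Dunel (DU-A; 16.7%, 3.01 to 56.4) against 8 of 249 others (3.21%). In Large White it held for 4 of 9 (LW-A to LW-D; 44.4%, 18.9 to 73.3) against 2 of 210 others (0.952%). Absence of the tag from the other line is part of the rule and shapes this comparison. The stricter count also came from the counts that chose the tags. It therefore cannot show that private tags differ from others, and these shares are a description that was not tested.

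Of the 11 private tags with a counterpart, 10 differed from it by a transition, a change between A and G or between C and T. DU-A and LW-C are each other's counterpart, so their shared substitution is counted from both sides. The exception was LW-F, whose substitution T17A is a transversion. In DU-A, DU-B, LW-C and LW-D one of the forms makes a CG dinucleotide at the substituted base, DU-A and LW-C again through the same substitution. Neither share was computed for other tags 1 substitution apart, so these counts are a description. The GC content of the private tags had a median of 61.8% in Dunel (47.1% to 70.6%) and 52.9% in Large White (29.4% to 64.7%), against 58.8% and 52.9% among tags with 3 or more copies in both libraries that were not private. None held a polyadenylation signal (AATAAA or ATTAAA), against 3.81% of those other tags in Dunel and 5.88% in Large White. With 6 private tags in Dunel and 9 in Large White, holding none does not set them apart from such shares.

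Private tags were rare in each line. They made up 1.87% of the 321 tags with 3 or more copies in both Dunel libraries (0.859% to 4.02%) and 3.41% of the 264 such tags in Large White (1.80% to 6.35%). The same rule turned to age, with 3 or more copies in both libraries of one age and 0 in both of the other, found 4 of 290 tags at 3 months (1.38%) and 3 of 266 at 9 months (1.13%). A line comparison here is between 2 pigs and an age comparison within them, and the intervals of all 4 shares overlap. A tag absent from one library of a line was often present in the other. Of 19 tags with 3 or more copies in both Dunel libraries and 0 in Large White at 3 months, 13 were present at 9 months, and of 19 Large White tags with 0 in Dunel at 3 months, 10 were present at 9 months. Just inside the threshold, 3 Dunel and 4 Large White private tags had exactly 3 copies in their lower library. Just outside it, 23 Dunel and 27 Large White tags absent from the other line had 2 copies there, and a further 13 and 7 tags had 3 or more copies in both libraries and 1 copy in the other line.

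Age was not the contrast that chose the tags, beyond the minimum of 3 copies in both libraries, so each tag was tested for a change from 3 to 9 months within its line. Fisher's exact test (two-sided) was used on the tag's count against the rest of the library, adjusted by Benjamini-Hochberg over the 464 tags with 10 or more copies in all. The test compares 2 libraries and has no replicate check. Among all tags tested, 10.8% passed in Dunel and 10.3% in Large White. Of the private tags 2 were tested in Dunel and 5 in Large White, and 1 passed, LW-C. In Dunel 0 passed and 1 had an unadjusted p under 0.05.

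LW-C fell from 19 to 5 copies, 3.62-fold (95% interval 1.41 to 9.34, exact test, adjusted p = 0.0384). DU-A, its 1-substitution partner in the other pig, had 26 and 9 copies, a ratio of 2.66 (1.27 to 5.59), and did not pass (exact test, adjusted p = 0.0568). Both forms of the pair thus had fewer copies at 9 months in the pig in which they were counted. The call of LW-C depends on the scaling: it was lost with TMM scaling (log2 change -1.32, adjusted p = 0.358) and with DESeq2 size factors (log2 change -1.52, adjusted p = 0.189), while DU-A passed under both (adjusted p = 0.0384 and 0.0373). The median tag of Large White shifted by -0.50 on the log2 scale without such scaling, and LW-C lay at -1.86. The value of DU-A depends on repeated ditags. With each counted a single time, its log2 change was -0.967 (exact test, adjusted p = 0.450). That of LW-C was then -1.92 (exact test, adjusted p = 0.0412).

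The other tested tags did not pass. LW-A had equal counts at both ages (log2 change -0.03, exact test, adjusted p = 1). The log2 change was -0.37 for LW-B, -1.10 for LW-D, -0.48 for LW-E and 0.60 for DU-B, with adjusted p from 0.459 to 0.893. At these counts the intervals were wide: that of LW-D ran from -2.56 to 0.37. The counterpart of LW-D had 13 and 5 copies in Dunel, a log2 change of -1.23 (exact test, adjusted p = 0.394), beside 11 and 5 copies of LW-D in Large White. The counterpart of DU-E fell in Large White from 13 to 2 copies (log2 change -2.46, exact test, adjusted p = 0.0384). The median tag of Large White shifted by -0.50. This counterpart was not examined under TMM or DESeq2 scaling, where LW-C, with the same adjusted p, did not pass. The abundant counterpart of LW-F rose in Dunel from 16 to 101 copies (log2 change 2.69, exact test, adjusted p = 3.07e-15). In Large White it fell from 125 to 71 (log2 change -0.84, exact test, adjusted p = 0.00135). Many of its copies lay in repeated ditags. With each repeated ditag counted a single time it had 16 and 53 copies in Dunel and 92 and 54 in Large White. Its change was not examined at those counts or under other scaling.

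**Figure D4:**
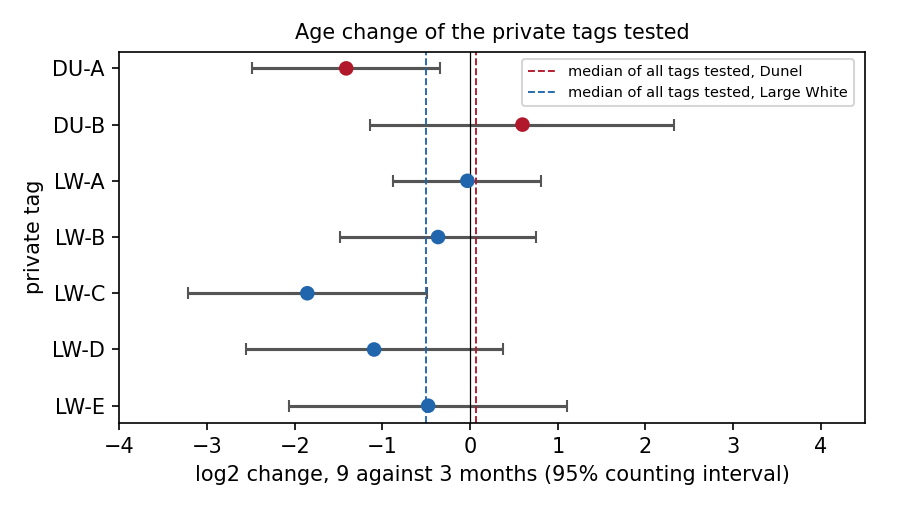
Log2 change from 3 to 9 months (horizontal axis) within the tag's own line for the 7 private tags tested (rows), with 95% counting intervals; red points are Dunel, blue points Large White, and dashed lines mark the median of all tags tested in each line. DU-A (-1.41) and LW-C (-1.86) lie lowest and their intervals leave out 0, while those of the other 5 tags include it.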

How the data were processed

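Per the file headers, the authors obtained tag counts with SAGEparser.pl 3.1: ditags of 32 to 36 bases were kept, a tag of 17 bases was taken from each end, with repeated ditags left in. The percent column the authors deposited is the count over all valid tags of a library and served as a check. The deposited lists of repeated ditags gave, per the file headers, the copies of each ditag, from which counts with every repeated ditag taken a single time were computed. Any aligner, build or link from tags to genes is not given in the sources used here. Groups were taken from the sample titles, because a separate age field gives 3 months for all 4 samples.

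The counts were used as deposited. Age was tested with Fisher's exact test at an adjusted p of 0.05. Log2 changes used a pseudocount of 0.5 copies, with 95% intervals from the counts. Each group holds 1 library, so intervals and limits cover counting error only. Reads carry no molecular identifiers, and repeated ditags entered the deposited counts as separate copies. The rule for named tags took up to 8 per line with the most copies, every reciprocal pair, those that passed the age test and, per line, the tag with the most abundant counterpart. LW-I was added outside it, and the values of 1 tag that the rule covers are not reported here. The members and lists were chosen with earlier results of these data known. Alternatives were other minimum counts, shorter tags, repeated ditags counted a single time, tags at under 1 in 50 of a neighbour left out, and scaling by edgeR 4.0.16 (TMM) or DESeq2 1.42.0. The scripts were tested on simulated data and ran under Python 3.11.15, SciPy 1.17.1 and R 4.3.3.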

Additional observations from a re-analysis of the deposited data

How the results depend on the processing

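The count of private tags followed the thresholds, as the rule makes it do. The 6 Dunel tags became 29 with a minimum of 2 copies, 3 with 4 and 1 with 5, and 19 when 1 copy in the other line was allowed. The 9 Large White tags became 36, 5, 5 and 16 in the same order. With a library left out, which relaxes the rule and was added after the data were seen, there were 19 to 80 in Dunel and 19 to 96 in Large White. Repeated ditags counted a single time left 5 and 9, with or without both orientations of a ditag merged (the merging added after the data were seen). Leaving out tags with a neighbour 50 or more times as frequent in their own line removed none. The counterparts of LW-F and LW-G, at 24.5 and 37.1 times, lie below that limit, so the filter could not remove these tags. The 4 Dunel tags with a counterpart became 2 when it needed 3 copies in the other line, 1 when it needed 3 in both libraries and 2 when it had to be absent from the tag's own line. The 7 Large White tags became 4 without the last 2 positions and 3 with absence from the own line, where any neighbour could serve: LW-C, and LW-F (A16G) and LW-G (T16A) through neighbours with 1 and 3 copies in Dunel in place of their abundant counterparts. In the age test DU-A passed, giving 1 Dunel tag in place of 0, with 20 or more copies required (adjusted p = 0.0318 in Fisher's exact test), TMM or DESeq2 size factors. LW-C did not, giving 0 in place of 1, with 5 or more copies required (adjusted p = 0.0861), TMM or DESeq2 size factors. With each repeated ditag taken as 1 copy, the adjusted p of DU-A was 0.450 and that of LW-C 0.0412. No paired analysis was possible because the 2 ages of a line are already 1 pig, with 1 library each, and a private tag has 0 copies in the other pig.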

Other observations

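The rule turned to age found 7 tags present in both pigs at one age and in neither at the other, given here as values only. At 3 months alone, age-A (gggggcggacaatttgc) had 6 copies in Dunel and 4 in Large White, age-B (acggcatcggcattgga) 5 and 3, age-C (gcgtcgggtttctgggc) 3 and 4, and age-D (tcccctgggctgttggc) 3 and 4. At 9 months alone, age-E (gtgtaataagacataac) had 5 copies in Dunel and 3 in Large White, age-F (gaaacatacacaggata) 3 and 4, and age-G (cctactaagcggggGgg) 3 and 3. Of these only age-G had a tag 1 substitution away at the other age (G15A, cctactaagcggggAgg), with 604 copies at 3 months and 613 at 9 months. None of the 7 exceeded 6 copies in a library, against up to 26 for the tags private to a line.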
